A study of Mus musculus with 2 samples.

Results

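Basement membranes are thin sheets of matrix that surround each vascular smooth muscle cell and underlie the endothelium. Their network is built of collagen IV, a trimer of α chains, and of laminins, trimers of 1 α, 1 β and 1 γ chain that differ mostly in the α chain, and perlecan (*Hspg2*), a large heparan sulfate proteoglycan, links the networks. Laminins with the α2 chain are typical of muscle, laminins with the α4 and α5 chains are typical of endothelium, and α5 is also found around mature vascular smooth muscle. The genes described here are 10 of the 31053 genes of the deposited tables: the collagen IV chains *Col4a1*, *Col4a2* and *Col4a5*, the laminin α chains *Lama2*, *Lama4* and *Lama5*, the β chains *Lamb1* and *Lamb2*, the γ chain *Lamc1*, and *Hspg2*. They were chosen by their gene symbols, with earlier results of these data known.

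Primary vascular smooth muscle cells (VSMCs) of wildtype mice were profiled by single-cell RNA sequencing (scRNA-seq) on day 5 of culture in full medium, in 2 libraries, biological replicates 1 and 2, of this 1 condition. The cells came from thoracic aortae that were digested with enzymes, each preparation from several pooled aortae, and the mice had a C57BL6/N background, without a transgene or treatment. The study used male and female mice, and their age is not given for this experiment. The culture contains contractile and modulated VSMCs and a few endothelial cells (ECs), and the study used it as a model of phenotypic modulation, the loss of contractile proteins that VSMCs undergo in culture. Counts are unique molecular identifiers (UMIs), each 1 captured mRNA molecule, read from the 3′ end.

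Cells were split by *Myh11*, the smooth muscle myosin heavy chain gene. In replicates 1 and 2 there were 473 and 879 cells with at least 5 *Myh11* UMIs (Myh11-high cells), 3954 and 5362 cells with at most 1 (Myh11-low cells), and 337 and 442 cells with 2 to 4, which enter no comparison. ECs were cells with at least 2 UMIs in 2 of the 4 genes *Pecam1*, *Cdh5*, *Cldn5* and *Gja4*, and there were 102 and 141 of them. The summed level of 8 further contractile genes was 24652 and 24692 CPM (UMIs per 1000000 UMIs of the class) in Myh11-high cells, 6833 and 3685 in Myh11-low cells, and 3053 and 2116 in ECs, so that the Myh11-low cells were not free of contractile mRNA. The sum of 7 markers of modulated VSMCs was 5376 and 5162 CPM in Myh11-high cells, 5641 and 6522 in Myh11-low cells, and 3605 and 3290 in ECs. It separated the VSMC classes much less than the contractile sum. The summed level of 10 further endothelial genes was 3142 and 3216 CPM in ECs and 72.4 to 105.5 in both other classes. The EC class also held lymphatic markers: *Prox1* was at 64.7 and 58.3 CPM, and 21 and 19 of the ECs had a *Prox1* UMI. The sum of 4 lymphatic markers was 163 and 110 CPM in ECs, 117 and 120 in Myh11-low cells, and 58.2 and 23.2 in Myh11-high cells. Of these markers, 4 and 3 were above 10 CPM in ECs, and 1 in Myh11-low and in Myh11-high cells. Of 8 leukocyte markers, summing to 47.5 and 27.4 CPM in Myh11-low cells and to at most 24.6 elsewhere, *Ptprc* was at 0 in Myh11-high cells and ECs and at 0.418 and 0.0746 CPM in Myh11-low cells. Of the other leukocyte markers, 1 was above 10 CPM in Myh11-low cells of each library, and 1 in ECs of replicate 2. Of 6 adventitial fibroblast markers, some of which ECs also express, the sum was 186 and 87.6 CPM in Myh11-high cells, 336 and 238 in Myh11-low cells, and 452 and 581 in ECs, and that of 5 pericyte markers was 466 and 373, 363 and 359, and 113 and 92.5. The part of such cells in the results was not tested. Median depth was 25667 and 21018 UMIs in Myh11-high cells, 21979 and 15639.5 in Myh11-low cells, and 14629 and 10250 in ECs. The libraries shared 9 cell barcodes, and doublets were not removed. Of the ECs, 4 and 3 had 5 or more *Myh11* UMIs.

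Levels are given as CPM of the UMIs summed per library and class, in the order replicate 1, replicate 2 (n = 2). Since 1 molecule gives 1 UMI at its 3′ end, CPM were not divided by transcript length, and levels of different genes also depend on how well each 3′ end is captured. With 2 libraries per class, an exact permutation test of a single value cannot give a p below 0.33, so tests were run across all 13226 genes that passed a filter on low counts, with edgeR's quasi-likelihood test and Benjamini-Hochberg adjustment at 0.05. Log2 fold changes are given with their standard error (SE). All 10 genes passed the filter. Myh11-low cells differed from Myh11-high cells in 301 genes (2.28% of those tested), ECs from Myh11-low cells in 2153 genes (16.3%), and ECs from Myh11-high cells in 2321 genes (17.5%). When UMIs were scaled by their total alone, the last count was split into 1603 higher and 781 lower genes, in place of 1249 and 1072, and the median of all genes moved from -0.03 to 0.12 on the log2 scale. The 3 comparisons share their classes and are not independent of each other. The *Myh11* classes were cut from a depth-dependent count, and a split by *Myh11* CPM is among the alternatives.

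Between Myh11-high and Myh11-low cells, the laminin α chains *Lama5* and *Lama2* had the largest absolute log2 fold changes among the 10 genes, in opposite directions. *Lama5* was lower in Myh11-low cells and *Lama2* was higher, and the other 8 genes did not pass the threshold. Against the 2.28% called over all genes (0.423% higher and 1.85% lower), 1 of 10 genes was called higher and 1 of 10 lower. Their median log2 fold change was -0.24, and that of all genes tested was 0.02. With the library number as a block, which uses the fact that all classes of a library come from the same culture, 2153 genes (16.3%) and 5 of the 10 were called: *Lama2* and *Lama4* higher (7.43% of all genes), and *Lama5*, *Col4a1* and *Hspg2* lower (8.85% of all genes) in Myh11-low cells.

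**Figure D1:**
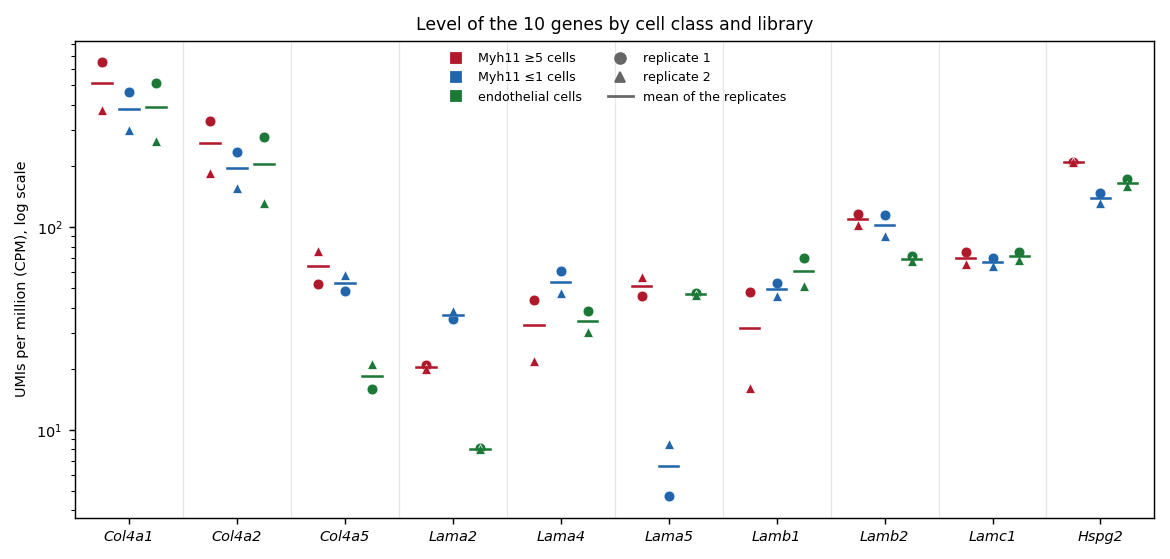
CPM (log scale) of the 10 genes in Myh11-high cells (red), Myh11-low cells (blue) and ECs (green). Circles are replicate 1, triangles replicate 2, and lines the mean of both. *Lama5* in Myh11-low cells (4.71 and 8.48 CPM) lies far below the other classes, and *Lama2* is lowest in ECs.

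*Lama5* (ENSMUSG00000015647, chromosome 2, 180176373 to 180225859 of GRCm38, minus strand) encodes the laminin α5 chain of laminins 511 and 521. It was found at 45.5 and 56.7 CPM in Myh11-high cells, at 4.71 and 8.48 in Myh11-low cells, and at 47.4 and 46.3 in ECs. Both Myh11-low sums were far below all other sums, and Myh11-high cells and ECs overlapped. The log2 fold change of Myh11-low over Myh11-high cells was -3.02 (SE 0.29, adjusted p = 0.0095 in edgeR), an 8.09-fold lower level, and it was -3.27 and -2.74 in the single libraries. It was past the threshold in 14 of 16 alternatives, and not with the sums of cells of 2 to 4 *Myh11* UMIs added to the fit (adjusted p = 0.0692 in edgeR) or without the filter on low counts (0.0589). Between ECs and Myh11-high cells the log2 fold change was -0.27 with an SE of 0.29 (adjusted p = 0.563 in edgeR), and its sign differed between the libraries.

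A *Lama5* UMI was found in 53.7% and 65.1% of the Myh11-high cells, in 9.16% and 11.9% of the Myh11-low cells, and in 46.1% and 34.0% of the ECs. The exact 95% binomial intervals, which cover counting error only, reached from 49.1 to 58.3% and from 61.8 to 68.2% in Myh11-high cells and from 8.27 to 10.1% and from 11.1 to 12.8% in Myh11-low cells. Thinned to 3000 UMIs per cell, the shares were 12.8% and 16.1%, 1.53% and 2.55%, and 13.5% and 13.5%. Free RNA, estimated from barcodes with 1 to 100 UMIs, would alone give a *Lama5* UMI in 2.26% and 2.03% of the Myh11-low cells. The *Lama5* share in Myh11-low cells was above these values. *Pecam1* was found in 0.961% and 0.783% of the Myh11-low cells, but it is a gene of the endothelial gate. The gate takes out some cells with *Pecam1*, so its share is no independent measure of the background. The free RNA estimate is open to the same limit in part, since it drew on endothelial genes that include *Pecam1*.

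*Lama5* followed the number of *Myh11* UMIs per cell over its whole range. With 0, 1, 2 to 4, 5 to 9, 10 to 19 and at least 20 *Myh11* UMIs, its level was 4.02, 10.1, 11.2, 23.4, 46.1 and 69.0 CPM in replicate 1, and 7.68, 17.8, 39.4, 50.1, 58.8 and 71.1 in replicate 2. The order of the grades was the same in both libraries, and replicate 2 was higher at every grade. Median depth rose along with it, from 21959 and 15606 UMIs per cell at 0 *Myh11* UMIs to 31002 and 23509 at 20 or more, and its part in the result was not tested. Within Myh11-high cells, *Lama5* was at 41.7 and 49.9 CPM in cycling cells (at least 3 UMIs summed over 5 cell cycle genes) and at 49.5 and 64.0 in the others. In Myh11-low cells these levels were 3.32 and 7.29 in cycling cells, 6.07 and 8.54 in non-cycling cells with at least 2 UMIs of *Lum*, a marker of modulated VSMCs, and 6.19 and 9.97 in the rest.

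**Figure D2:**
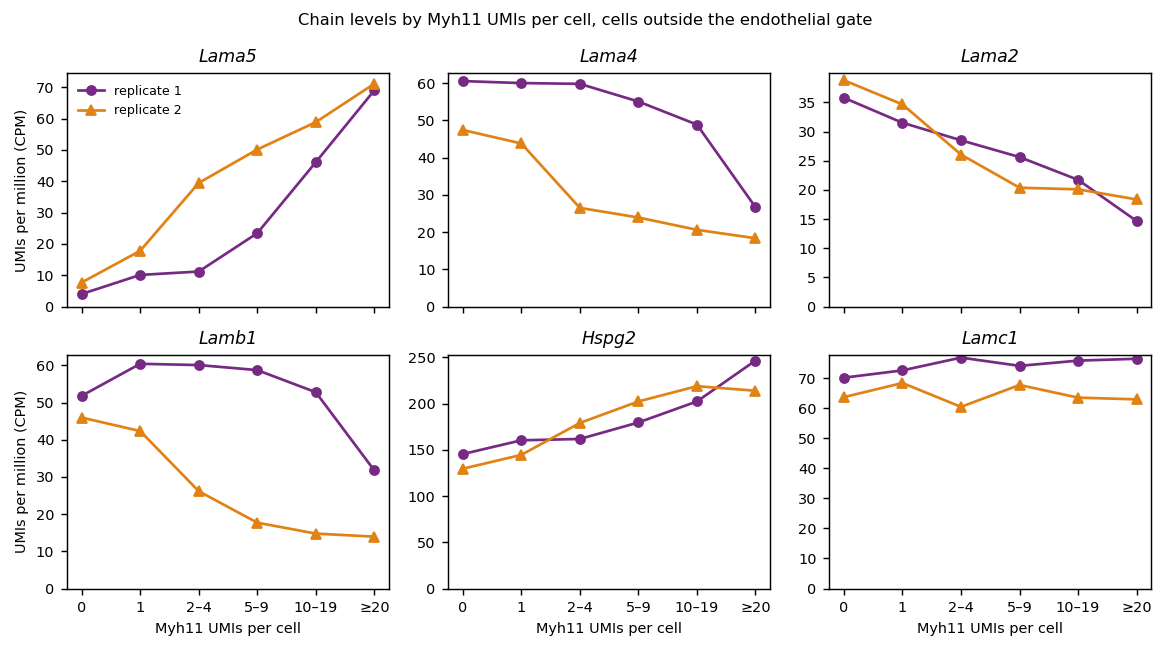
CPM of 6 of the genes by the number of *Myh11* UMIs per cell, for cells outside the endothelial gate, with purple circles for replicate 1 and orange triangles for replicate 2. *Lama5* and *Hspg2* are higher at upper grades, *Lama4* and *Lama2* are lower there, and *Lamc1* stays between 60.4 and 76.8 CPM. *Lamb1* is lower at upper grades in replicate 2. In replicate 1 it is below its level at 0 UMIs (51.8 CPM) only at 20 or more (31.8 CPM).

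*Lama2* (ENSMUSG00000019899, chromosome 10, 26980036 to 27619758, minus strand) encodes the α2 chain of laminins 211 and 221, the laminins of the muscle basement membrane. It was found at 20.8 and 19.97 CPM in Myh11-high cells, at 35.3 and 38.5 in Myh11-low cells, and at 8.15 and 7.995 in ECs. The libraries were close to each other in every class and the classes did not overlap. The log2 fold change of Myh11-low over Myh11-high cells was 0.80 (SE 0.13, adjusted p = 0.047 in edgeR), or 1.74-fold, with 0.77 and 0.95 in the single libraries. This adjusted p lies at the threshold: it took values between 8.54e-05 and 0.105 over 16 alternatives, 9 of which kept the call. ECs were lower than Myh11-low cells by a log2 fold change of -2.28 (SE 0.17, adjusted p = 0.000894 in edgeR) and lower than Myh11-high cells by -1.48 (SE 0.17, adjusted p = 0.00411 in edgeR), and both calls held in 16 of 16 alternatives.

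A *Lama2* UMI was found in 36.6% and 33.2% of the Myh11-high cells, in 46.6% and 41.0% of the Myh11-low cells, and in 10.8% and 6.38% of the ECs. In ECs free RNA alone would give 10.1% and 4.14%, an estimate that is rough and at the upper end. The shares of ECs with a *Lama2* UMI were near these values. At least 2 *Lama2* UMIs were found in 4.90% and 2.13% of the ECs, and the part of free RNA was not tested. Over the grades of *Myh11*, *Lama2* went from 35.8 and 38.8 CPM at 0 UMIs to 14.7 and 18.4 at 20 or more, and no grade was above the one before it in either library. It was at 21.7 and 20.3 CPM in cycling and at 19.8 and 19.6 in non-cycling Myh11-high cells.

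The start regions of both genes are shown because they are the chains that were called in opposite directions. The 250 bases before the RefSeq start site (GRCm38.p6), 5′ to 3′ on the strand of the gene, lie at chr2:180225860-180226109 for *Lama5* and at chr10:27616943-27617192 for *Lama2*, both on the minus strand. Neither window overlaps an annotated exon, but that of *Lama2* lies inside the GENCODE gene, which has a further start site upstream, and counts from 3′ ends do not show which start was used. Capitals mark matches on either strand to the CArG box, the motif of serum response factor, and to the GC box GGGCGG. Searches on either strand for CCAAT, a common promoter element, and for TATAAA, the core of the TATA box, found no match in these windows. An E-box search for CAGGTG found 2 in that of *Lama5*, left in lower case.
Lama5: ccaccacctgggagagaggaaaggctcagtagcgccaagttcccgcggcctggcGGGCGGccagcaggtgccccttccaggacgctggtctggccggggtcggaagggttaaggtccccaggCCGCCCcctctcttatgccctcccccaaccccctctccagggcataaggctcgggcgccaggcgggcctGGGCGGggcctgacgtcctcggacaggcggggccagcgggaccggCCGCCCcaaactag
Lama2: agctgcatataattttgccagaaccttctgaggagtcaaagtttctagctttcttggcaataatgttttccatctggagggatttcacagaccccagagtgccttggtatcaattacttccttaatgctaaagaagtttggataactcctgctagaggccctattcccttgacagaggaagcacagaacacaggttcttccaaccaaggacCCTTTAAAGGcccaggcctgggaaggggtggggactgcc
The *Lama5* window holds 4 GC boxes and no CArG box, and its GC content is 72.4%. The *Lama2* window holds 1 CArG box and no GC box, at a GC content of 47.2%. Over 32851 windows of the same length, 32.7% held the GC box, 1.47% a CArG box, 33.8% CCAAT, 12.4% TATAAA and 17.2% CAGGTG. These are matches of letters and no evidence of binding.

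*Lama4* (ENSMUSG00000019846, chromosome 10, 38965515 to 39110188, plus strand) encodes the α4 chain of laminins 411 and 421. It was found at 43.6 and 21.8 CPM in Myh11-high cells, at 60.5 and 47.2 in Myh11-low cells, and at 38.7 and 30.3 in ECs. Both Myh11-low sums were above all others, but the libraries of Myh11-high cells lay far apart, and Myh11-high cells and ECs overlapped. The log2 fold change of Myh11-low over Myh11-high cells was 0.66 (SE 0.35, adjusted p = 0.414 in edgeR), with 0.47 and 1.11 in the single libraries. With the library block it was 0.72 (SE 0.17, adjusted p = 0.0338 in edgeR). ECs over Myh11-low cells gave -0.73 (SE 0.37, adjusted p = 0.230 in edgeR), and with the block -0.75 (SE 0.20, adjusted p = 0.0339 in edgeR).

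Taken as parts of all laminin α UMIs, *Lama5* made up 39.8% and 56.5% in Myh11-high cells, 4.49% and 8.77% in Myh11-low cells, and 47.7% and 50.9% in ECs. *Lama4* made up 38.1% and 21.7%, 57.8% and 48.8%, and 39.0% and 33.3%. *Lama2* made up 18.1% and 19.9%, 33.7% and 39.8%, and 8.21% and 8.81%. The sum of all 5 α chains moved less than its parts, with 114 and 100.3 CPM in Myh11-high cells, 105 and 96.7 in Myh11-low cells, and 99.4 and 90.8 in ECs. In cells with 2 to 4 *Myh11* UMIs, *Lama5* made up 10.7% of the α UMIs of replicate 1 but 41.2% of those of replicate 2, so that the libraries differed in the intermediate cells by more than at either end.

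**Figure D3:**
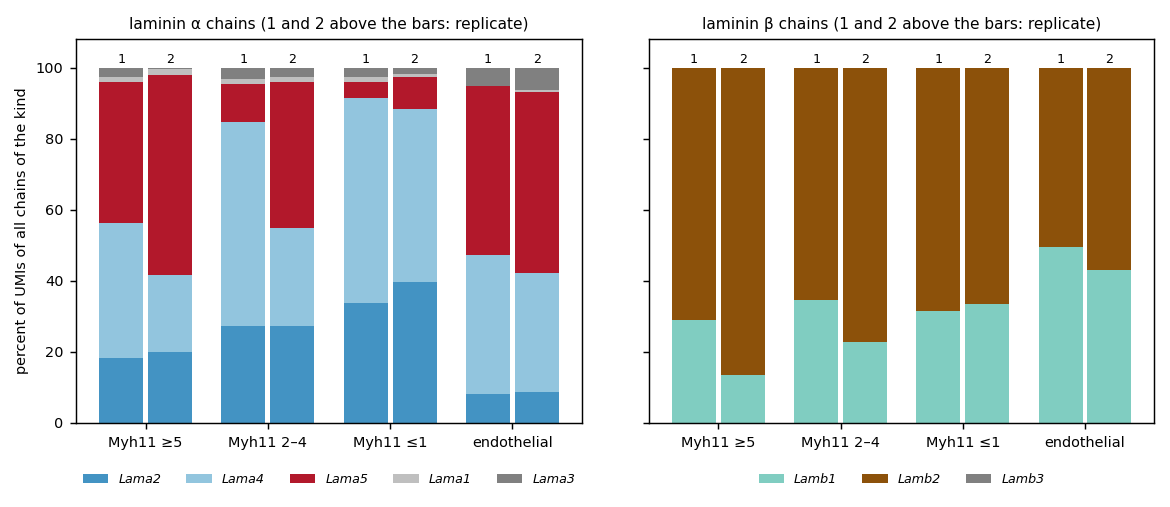
Percent of all laminin α UMIs (left) and β UMIs (right) given by each chain, per class, with 1 bar per replicate. *Lama5* (red) makes up 39.8% to 56.5% of the α UMIs in Myh11-high cells and ECs and 4.49% and 8.77% in Myh11-low cells, and *Lamb1* (light green) has its highest share in ECs.

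The β chains showed another pattern. *Lamb1* (ENSMUSG00000002900, chromosome 12, 31265234 to 31329644, plus strand) encodes the β1 chain, and was found at 47.8 and 16.0 CPM in Myh11-high cells, at 52.8 and 45.7 in Myh11-low cells, and at 70.3 and 51.4 in ECs. The libraries lay far apart in Myh11-high cells and close together in Myh11-low cells. In cells with 5 to 9, 10 to 19 and 20 or more *Myh11* UMIs the level was 58.7, 52.8 and 31.8 CPM in replicate 1 and 17.7, 14.8 and 13.9 in replicate 2. The log2 fold change of Myh11-low over Myh11-high cells came to 0.14 in replicate 1 but 1.51 in replicate 2, and the fit gave 0.57 (SE 0.48, adjusted p = 0.651 in edgeR). No comparison of *Lamb1* passed the threshold, with or without the block.

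*Lamb2* (ENSMUSG00000052911, chromosome 9, 108479736 to 108490530, plus strand) encodes the β2 chain of the laminins 221, 421 and 521, and was found at 116 and 103 CPM in Myh11-high cells, at 115 and 90.5 in Myh11-low cells, and at 71.8 and 68.0 in ECs. Both EC sums were below all 4 VSMC sums. ECs were lower than Myh11-high cells by a log2 fold change of -0.80 (SE 0.18, adjusted p = 0.0303 in edgeR), a call that held in 15 of 16 alternatives, and by -0.65 than Myh11-low cells (SE 0.18, adjusted p = 0.0575 in edgeR, and 0.00734 with the block). The ratio of *Lamb1* to *Lamb2* UMIs was 0.41 and 0.16 in Myh11-high cells, 0.46 and 0.50 in Myh11-low cells, and 0.98 and 0.76 in ECs. *Lamb3* gave under 0.2% of the β UMIs in every class.

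*Lamc1* (ENSMUSG00000026478, chromosome 1, 153218922 to 153332786, minus strand) encodes γ1, the γ chain that all laminins named so far share. It was found at 75.4 and 65.4 CPM in Myh11-high cells, at 70.4 and 64.0 in Myh11-low cells, and at 75.4 and 68.5 in ECs. The classes overlapped, and no difference was detected: the log2 fold changes were -0.12 (SE 0.15), 0.01 (SE 0.15) and -0.12 (SE 0.15) in the 3 comparisons, with adjusted p from 0.647 to 0.984 in edgeR.

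*Col4a1* (ENSMUSG00000031502, chromosome 8, 11198423 to 11312826, minus strand) and *Col4a2* (ENSMUSG00000031503, chromosome 8, 11312805 to 11449287, plus strand) encode the α1 and α2 chains of the common collagen IV trimer, which holds 2 α1 chains and 1 α2 chain. The genes lie head to head, and as annotated they overlap by 22 bases at their 5′ ends. *Col4a1* was found at 649 and 377 CPM in Myh11-high cells, at 465 and 301 in Myh11-low cells, and at 513 and 267 in ECs. *Col4a2* was found at 335 and 185, at 235 and 156, and at 279 and 131 CPM. Replicate 1 was higher than replicate 2 for both genes in every class, and the libraries differed by more than the classes. Within each library Myh11-high cells were highest of the compared classes. Cells with 2 to 4 *Myh11* UMIs lay slightly above them, with *Col4a1* at 662 and 379 CPM and *Col4a2* at 346 and 197. The log2 fold changes of Myh11-low over Myh11-high cells were -0.48 (SE 0.42, adjusted p = 0.664 in edgeR) and -0.47 (SE 0.45, adjusted p = 0.702 in edgeR). With the library block they were -0.46 (SE 0.09, adjusted p = 0.0209 in edgeR) and -0.43 (SE 0.12, adjusted p = 0.0529 in edgeR).

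For ECs over Myh11-high cells the block also changed the call of both genes, from adjusted p of 0.422 and 0.506 to 0.00596 and 0.0227 (edgeR), at -0.56 and -0.52 on the log2 scale. For ECs over Myh11-low cells both log2 fold changes were near 0 (-0.07 and -0.03), and the sign differed between the libraries and reversed when UMIs were scaled by their total alone. The ratio of *Col4a1* to *Col4a2* UMIs lay between 1.84 and 2.04 in all 3 classes and both libraries. Sums were also taken per library for ECs, cycling and non-cycling Myh11-high cells, cells with 2 to 4 *Myh11* UMIs, and cycling Myh11-low cells. Non-cycling Myh11-low cells were summed apart for those with at least 2 *Lum* UMIs and those with fewer. Across these 14 sums, which share depth and library, the log2 levels of *Col4a1* and *Col4a2* correlated at a Pearson r of 0.995. Of 5801 genes with a mean of at least 20 CPM, *Col4a2* was the most like *Col4a1*, followed by *Clasp2* (0.915) and *Ppp2r1a* (0.912).

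*Col4a5* (ENSMUSG00000031274, chromosome X, 141475385 to 141689234, plus strand) encodes the α5 chain, which forms a trimer with the α6 chain in smooth muscle. It was found at 52.1 and 76.0 CPM in Myh11-high cells, at 48.4 and 57.9 in Myh11-low cells, and at 15.8 and 21.1 in ECs. Both VSMC classes overlapped, and both EC sums were below all VSMC sums. ECs were lower than Myh11-low cells by a log2 fold change of -1.62 (SE 0.25, adjusted p = 0.011 in edgeR) and lower than Myh11-high cells by -1.95 (SE 0.26, adjusted p = 0.0057 in edgeR), in 16 of 16 alternatives. A *Col4a5* UMI was found in 65.3% and 73.6% of the Myh11-high cells, in 58.0% and 55.0% of the Myh11-low cells, and in 17.6% and 18.4% of the ECs, where free RNA alone would give 15.6% and 8.44%. Unlike *Col4a1* and *Col4a2*, *Col4a5* had its higher level in replicate 2 in every class, and the ratio of *Col4a1* to *Col4a5* UMIs was 12.4 and 4.96 in Myh11-high cells, 9.60 and 5.21 in Myh11-low cells, and 32.5 and 12.6 in ECs.

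*Hspg2* (ENSMUSG00000028763, chromosome 4, 137468769 to 137570630, plus strand), the perlecan gene, was found at 209 and 210.5 CPM in Myh11-high cells, at 147 and 131 in Myh11-low cells, and at 172 and 159 in ECs. The libraries were close to each other and the classes did not overlap. The log2 fold change of Myh11-low over Myh11-high cells was -0.65 (SE 0.13, adjusted p = 0.0734 in edgeR, and 0.0063 with the block), and that of ECs over Myh11-high cells was -0.49 (SE 0.13, adjusted p = 0.0564 in edgeR, and 0.0103 with the block). The former was under 0.05 in 4 and the latter in 10 of 16 alternatives. Over the *Myh11* grades *Hspg2* went from 145 and 130 CPM at 0 UMIs to 247 and 214 at 20 or more.

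**Figure D4:**
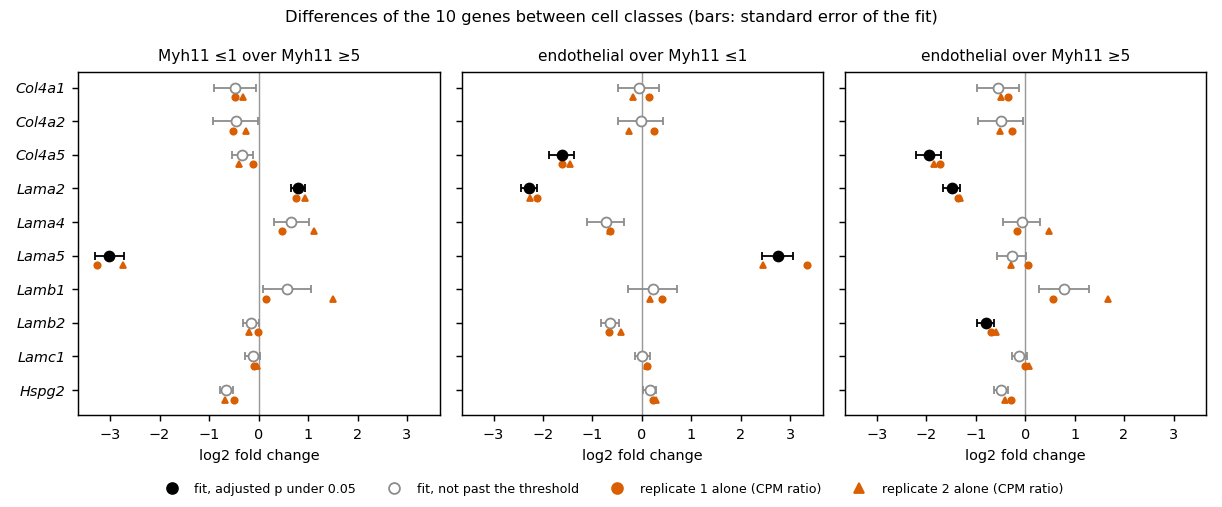
Log2 fold changes of the 10 genes in the 3 comparisons, with the SE of the edgeR fit as bars. Black circles passed an adjusted p of 0.05, open circles did not, and orange symbols show the CPM ratio within replicate 1 (circle) and replicate 2 (triangle). *Lama5* lies at -3.02 and 2.74 in the first and second comparison, and the replicates of *Lamb1* lie far apart where Myh11-high cells are the base.

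In ECs against Myh11-low cells, 3 of the 10 genes were called, against 16.3% of all genes (9.76% higher and 6.52% lower): *Lama5* higher (log2 fold change 2.74, SE 0.30, adjusted p = 0.00355 in edgeR) and *Lama2* and *Col4a5* lower. In ECs against Myh11-high cells, 3 of 10 were called, against 17.5% of all genes (9.44% higher and 8.11% lower), all lower: *Lama2*, *Col4a5* and *Lamb2*. With the block, 5 of 10 genes (31.2% of all) were called against Myh11-low cells, with *Lama4* and *Lamb2* lower in addition, and 6 of 10 (30.1% of all) against Myh11-high cells, with *Col4a1*, *Col4a2* and *Hspg2* lower in addition. The median log2 fold changes of the 10 genes were -0.05 and -0.49, and those of all genes -0.03 and -0.03. Without the ECs that had a *Prox1* UMI, an alternative added after the data were seen, these 6 calls held, and *Lamb2* (adjusted p = 0.0321 in edgeR) was called in addition against Myh11-low cells and *Hspg2* (adjusted p = 0.0319 in edgeR) against Myh11-high cells. In the 21 and 19 ECs with a *Prox1* UMI, *Lama5* was at 36.8 and 11.4 CPM, against 51.2 and 52.4 in the 81 and 122 other ECs, and the sums of so few cells hold few UMIs.

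Chain partners were next counted in the same cells. Since deeper cells hold more of every UMI, the share of cells with both chains was set against the share expected if both were found independently within deciles of UMIs per cell of a class and library. These ratios describe cells of the same culture, which are not replicates, and carry no test. *Col4a1* and *Col4a2* were found together in 93.0% and 91.9% of the Myh11-high cells, in 79.0% and 68.0% of the Myh11-low cells, and in 81.4% and 54.6% of the ECs. Free RNA alone would give ECs a *Col4a1* UMI in 71.6% and 32.3% and a *Col4a2* UMI in 55.8% and 23.3% of the cells, so that its part in the EC shares cannot be told apart. At the high shares of Myh11-high cells the ratio of observed to expected can hardly exceed 1. The ratio was 1.01 and 1.00 there, 1.07 and 1.08 in Myh11-low cells, and 1.04 and 1.08 in ECs. When each cell was thinned to 3000 UMIs, it was 1.11 and 1.08, 1.32 and 1.35, and 1.23 and 1.31. For thinned cells, here and below, the expected share was taken over the whole class and not within deciles. The thinned ratio was above 1 in every class and library. The part of free RNA and of differences between cells within a class was not tested.

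Among the laminins of Myh11-high cells, *Lama4* and *Lamb1* were found together more often than expected, and *Lama5* less often with either. With *Lamb1* this shortfall was small in replicate 2, where *Lamb1* was in 22.7% of cells with and 23.8% without *Lama5*. *Lama4* and *Lamb1* shared 35.5% and 10.5% of the Myh11-high cells, 1.18 and 1.27 times the expected share. *Lama4* and *Lama5* shared 24.5% and 18.7%, 0.79 and 0.89 times that share, and *Lama5* and *Lamb1* shared 20.1% and 14.8%, 0.73 and 0.93 times. After thinning to 3000 UMIs these ratios were 1.52 and 1.84, 0.59 and 0.73, and 0.51 and 0.76. Because all 3 genes change with the *Myh11* grade, the expected share was also taken within grades and 3 bins of depth, an alternative added after the data were seen. The ratios were then 1.17 and 1.31, 0.84 and 0.90, and 0.81 and 0.94, and their direction was the same in both libraries.

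*Lama5* and its other β partner *Lamb2* were found in the same 51.4% and 55.6% of the Myh11-high cells, at 1.03 and 1.00 times the expected share. For each α chain with *Lamc1* the ratio lay between 0.97 and 1.06 in both VSMC classes. *Lama2* and *Lama5* were found together 0.92 and 0.98 times as often in Myh11-high cells as independence would give and 0.91 and 0.84 times in Myh11-low cells. In Myh11-low cells *Lama4* and *Lamb1* gave 1.05 and 1.09, and *Lama4* and *Lama5* 0.86 and 0.83, whereas *Lama5* and *Lamb1* gave 1.02 and 0.90, on either side of 1. In the 102 and 141 ECs the ratio of *Lama4* and *Lama5* was 0.99 and 0.85, and that of *Lama5* and *Lamb1* was 1.06 and 1.12, where single cells weigh heavily.

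**Figure D5:**
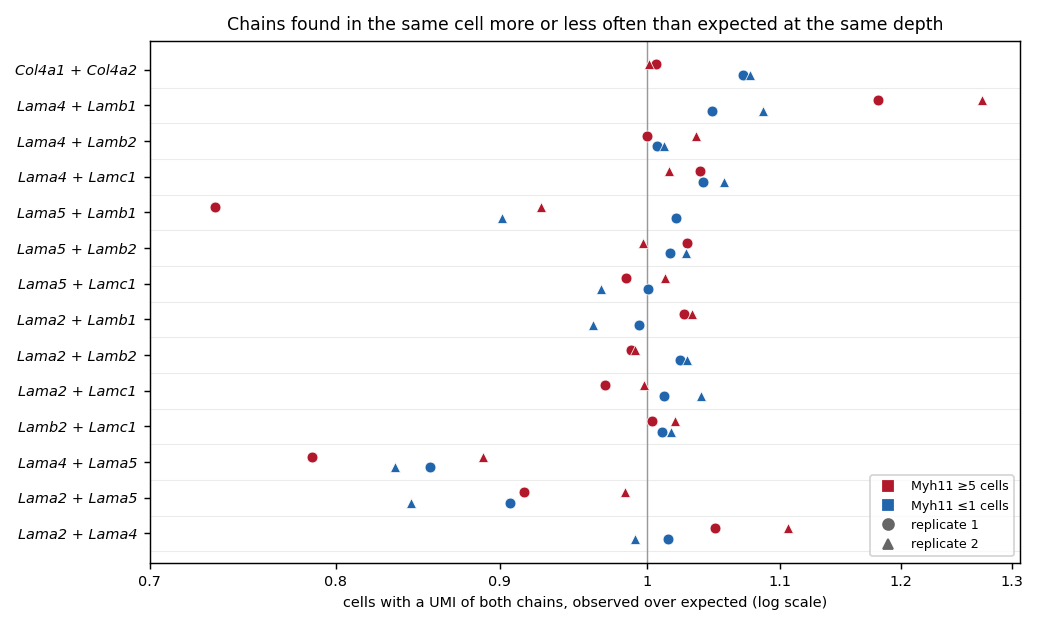
Cells with a UMI of both genes of a pair, as observed over expected within deciles of depth (log scale), in Myh11-high (red) and Myh11-low cells (blue), with circles for replicate 1 and triangles for replicate 2. *Lama4* with *Lamb1* lies at 1.05 to 1.27, *Lama4* with *Lama5* at 0.79 to 0.89, and the pairs with *Lamc1* lie near 1.

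All 3 chains of laminin 521 (*Lama5*, *Lamb2*, *Lamc1*) had a UMI in 42.5% and 41.6% of the Myh11-high cells, in 6.37% and 6.10% of the Myh11-low cells, and in 22.5% and 10.6% of the ECs. For laminin 411 (*Lama4*, *Lamb1*, *Lamc1*) the shares were 32.1% and 7.74%, 34.8% and 18.3%, and 26.5% and 7.80%. For laminin 221 (*Lama2*, *Lamb2*, *Lamc1*) they were 29.2% and 22.1%, 34.2% and 23.5%, and 10.8% and 2.13%. For laminin 421 (*Lama4*, *Lamb2*, *Lamc1*) they were 47.1% and 21.6%, 44.8% and 25.3%, and 25.5% and 9.22%. Laminin 511 (*Lama5*, *Lamb1*, *Lamc1*) gave 17.1% and 11.9%, 4.86% and 3.64%, and 25.5% and 8.51%. Laminin 211 (*Lama2*, *Lamb1*, *Lamc1*) gave 18.0% and 7.17%, 25.5% and 15.2%, and 7.84% and 3.55%. These shares are of cells in which a UMI of each chain was found, and they depend on depth and on free RNA. In ECs free RNA alone would give a UMI of *Lama2* in 10.1% and 4.14% and of *Lamb2* in 39.5% and 16.5% of the cells, so that the EC shares with *Lama2* were at or near the background. None of *Lama2*, *Lama4* and *Lama5* was found in 9.30% and 17.1% of the Myh11-high cells, and all 3 in 10.6% and 7.05%.

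Across the 14 sums, which share depth and library, *Lama5* was most like *Pdlim3* (Pearson r of log2 levels 0.988), *Cd59a* (0.986) and *2200002D01Rik* (0.982), and *Lama2* was most like *Dse* (0.989), *Vgll3* (0.983) and *Rbms3* (0.983). *Lama4* was most like *Lima1* (0.987), *Cdk14* (0.978) and *Fos* (0.976), and *Hspg2* was most like *Lims2* (0.974), *Bcam* (0.973) and *Map1b* (0.971). Among the 10 genes themselves, *Lama5* had an r of 0.83 with *Hspg2*, -0.79 with *Lama4* and -0.76 with *Lama2*, and *Lama4* had an r of 0.82 with *Lamb1*.

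Other chains of both families were low. *Col4a6*, the partner of *Col4a5*, was found at 8.96 and 15.0 CPM in Myh11-high cells, at 8.26 and 13.2 in Myh11-low cells, and at 1.02 and 0.571 in ECs, where it rested on 2 and 1 UMIs. It was lower in ECs than in Myh11-high cells (adjusted p = 0.00943 in edgeR) and Myh11-low cells (adjusted p = 0.0126 in edgeR), and at so few UMIs the fitted fold changes are not given. It shared cells with *Col4a5* at 1.15 and 1.01 times the expected share in Myh11-high cells. *Col4a4* was found at 6.95 and 5.66 CPM in Myh11-high cells, at 12.1 and 14.8 in Myh11-low cells, and at 5.60 and 7.42 in ECs, which were lower than Myh11-low cells (log2 fold change -1.14, SE 0.27, adjusted p = 0.039 in edgeR). Its difference between the VSMC classes passed the threshold in edgeR with the block (adjusted p = 0.0165) and not without it (0.0798). In DESeq2, without a block, 1 of the 7 tested other chains was called, as higher in Myh11-low cells. *Col4a3*, *Lama1*, *Lama3* and *Lamc3* lay between 0 and 5.71 CPM in all 3 classes, and *Lamb3*, which did not pass the filter, at 0 to 0.128 CPM.

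Genes of 4 further lists were counted, and those named are at most 3 per list and comparison with the largest log2 fold change among the called, and *Itga2* and *Pxdn*, chosen after their values were seen. Over all genes tested, 0.423% were higher and 1.85% lower in Myh11-low than in Myh11-high cells (7.43% and 8.85% with the block), 9.76% were higher and 6.52% lower in ECs than in Myh11-low cells (15.6% and 15.6% with the block), and 9.44% were higher and 8.11% lower in ECs than in Myh11-high cells (14.8% and 15.3% with the block). Of 15 proteins that accompany the basement membrane, 3 were lower in Myh11-low than in Myh11-high cells and 12 were not called (median log2 fold change -0.17). With the block 4 were higher and 7 lower, against 2.28% called over all genes without and 16.3% with the block. These were *Col18a1*, which carries endostatin (107 and 121 CPM in Myh11-high cells, 6.99 and 8.17 in Myh11-low cells, 349 and 268 in ECs), *Npnt*, an integrin ligand (344 and 339, 90.1 and 62.4, 52.0 and 41.1), and *Agrn*, a heparan sulfate proteoglycan (7.99 and 11.0, 3.19 and 2.80, 20.9 and 15.4). ECs were higher than Myh11-low cells in 4 and lower in 1 of the 15, with *Col18a1* (log2 fold change 5.26, SE 0.21, adjusted p = 0.000108 in edgeR), *Vwa1* (3.38, from 0.722 and 0.320 to 8.66 and 2.86 CPM) and *Agrn* (2.51) moving most. With the block 4 were higher and 8 lower. Against Myh11-high cells 1 was higher and 3 lower (1 and 5 with the block), with *Npnt* (-3.02), *Nid2* (-2.00) and *Col18a1* (1.29) moving most. Like *Lama5*, *Col18a1* and *Agrn* had their lowest level in Myh11-low cells in both libraries.

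Of 11 receptors of collagen IV and laminins, 1 was higher and 3 were lower in Myh11-low than in Myh11-high cells (3 and 7 with the block), against the same 2.28% and 16.3% of all genes. *Itga7*, the α7 integrin of muscle, was at 19.5 and 16.5 CPM in Myh11-high cells, 0.460 and 0.756 in Myh11-low cells, and 0 and 1.14 in ECs. *Itga3*, an integrin chain that binds α5 laminins, was at 48.0 and 57.0, 0.857 and 4.42, and 54.0 and 46.3 CPM, and *Bcam*, a receptor of the laminin α5 chain, was at 115 and 123, 24.2 and 17.1, and 70.8 and 63.4. *Itga2*, a collagen-binding integrin chain, was the gene that was higher, at 9.86 and 12.6 against 31.6 and 30.5 CPM. Their log2 fold changes were -4.94 (SE 0.44, adjusted p = 0.00761 in edgeR), -4.38 (SE 0.72, adjusted p = 0.0442), -2.58 (SE 0.21, adjusted p = 0.00629) and 1.41 (SE 0.23, adjusted p = 0.0447). *Itgb4*, the β4 chain of the α6β4 laminin receptor, was at 72.9 and 142 CPM in ECs and at most 1.66 in both other classes, and *Itga6* was at 99.9 and 67.4 CPM in ECs, against 6.13 and 14.9 in Myh11-high and 1.495 and 4.37 in Myh11-low cells. In ECs 4 of the 11 receptors were higher and 3 lower than in Myh11-low cells, and 2 were higher and 6 lower than in Myh11-high cells, against 16.3% and 17.5% called over all genes. With the block these counts were 4 and 4, and 2 and 6.

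Of 19 genes of collagen processing and crosslinking, 0 were called between the VSMC classes in edgeR, with 3 at an unadjusted p under 0.05. With the block and in DESeq2 alike, 1 was higher and 2 were lower. ECs were higher in 2 and lower in 3 than Myh11-low cells, where *Plod2*, a lysyl hydroxylase (log2 fold change -2.36), *P4ha1*, a prolyl hydroxylase (-1.28), and *Serpinh1*, the collagen chaperone HSP47 (-1.14), moved most, and lower in 4 than Myh11-high cells. *Pxdn*, the peroxidase that crosslinks collagen IV, was at 31.6 and 30.2 CPM in Myh11-high cells, 18.9 and 20.4 in Myh11-low cells, and 45.9 and 42.3 in ECs. Of 9 tested remodelling genes, 0 were called between the VSMC classes in edgeR, with 3 at an unadjusted p under 0.05, 3 higher with the block and 2 higher in DESeq2. *Timp3*, *Mmp14* and *Timp2* were lower in ECs than in Myh11-low cells (-1.91, -1.46 and -1.44). With the block, 13 of the 19 processing genes were lower in ECs than in either VSMC class taken alone, against 15.6% (Myh11-low) and 15.3% (Myh11-high) of all genes. Higher in ECs were 2 of them against Myh11-low and 1 against Myh11-high cells. Of the 9 remodelling genes, 5 were lower in ECs than in Myh11-low and 4 lower than in Myh11-high cells with the block.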

How the data were processed

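Cultured VSMCs were measured by 10x Genomics 3′ scRNA-seq (version 3 chemistry) in 2 libraries. The deposited values are raw UMI counts per gene and barcode that the authors made with Cell Ranger (3.0.2 per the labels, 3.1.0 in the file header of replicate 2) on mm10. All barcodes were deposited, and the cells kept had 300 or more genes, 3000 or more UMIs and mitochondrial reads below 20%, 4866 and 6824 cells. The files hold 127949633 and 132561822 UMIs over all barcodes. The libraries differed beyond sampling noise. No doublet caller was run.

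UMIs were summed per library and class. The 6 sums entered 1 fit in edgeR 4.0.16 (R 4.3.3), with TMM scaling, filterByExpr, the quasi-likelihood F test and Benjamini-Hochberg adjustment over all genes at 0.05. The study's methods state no test for this experiment, and this fit has no block. Library numbers pair the sums, since all classes of a library are 1 culture, and deviations from class means correlated at 0.726, 0.454 and 0.505 over 10705 genes, so blocked values are given where they change a call of the 10 genes. For the further lists, blocked results are given as counts. DESeq2 1.42.0 was an alternative. On simulated counts for Myh11-low over Myh11-high cells (12893 genes), 76.0% of 96 2-fold and 99.0% of 97 4-fold changes were recovered, with 2.87% false calls. The simulation used 1 dispersion of 0.02 for all genes and no library effect. In the data the libraries differed, so these rates need not hold there. Intervals are exact binomial (Clopper-Pearson). Positions are from GENCODE M21, in which 31011 of 31053 gene IDs were found, and start regions from RefSeq, with 8 of the 10 genes matched. The 10 genes, all lists and the naming rule (all 10 genes, other chains and, per list and comparison, the 3 called genes with the largest log2 fold change) were chosen with earlier results of these data known. *Itga2* and *Pxdn* were chosen after their values were seen. Results for 1 other chain are not reported here. Alternatives changed scaling, filters, cell classes and free RNA.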

Additional observations from a re-analysis of the deposited data

How the results depend on the processing

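Of 480 log2 fold changes of the 10 genes under 16 alternatives in 3 comparisons, 436 kept direction and side of the threshold, 27 came to pass it, 10 no longer passed it and 7 reversed. The reversed ones were past the threshold in no fit. For ECs over Myh11-low cells, *Col4a1* moved to 0.027 and *Col4a2* to 0.068 with scaling by total UMIs, *Col4a2* to 0.018 with Myh11-low cells at 0 *Myh11* UMIs, and *Lamc1* to -0.054 without the filter on low counts. For ECs over Myh11-high cells, *Lama4* moved to 0.084 and *Lamc1* to 0.034 with scaling by total UMIs, and *Lama4* to 0.13 with Myh11-high cells at 10 or more UMIs. The cause was not tested.

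With the library number as a block (paired analysis), the called genes went from 301 to 2153 for Myh11-low over Myh11-high cells (983 higher and 1170 lower), from 2153 to 4123 for ECs over Myh11-low and from 2321 to 3981 for ECs over Myh11-high cells. Without the filter on low counts they were 70, 1389 and 1514. For Myh11-low over Myh11-high cells they were also 1162 in DESeq2, 125 with 8 sums in the fit, 932 with at least 10 *Myh11* UMIs (343 higher and 589 lower), and 636 with classes cut by *Myh11* CPM. Leaving out 1 library leaves no residual degrees of freedom and gave values with no test. Of these, 29 stayed within and 31 went beyond 1 SD of the single-library values, counted from the fit. The single-library values are CPM ratios without TMM scaling and the fit is TMM-scaled. These counts therefore mix scaling with library and do not measure dependence on a library. All 60 shares of cells with a UMI, and 113 of 114 shares with both chains, moved beyond their intervals when cells were thinned to 3000 UMIs, as thinning removes UMIs by construction. Depth limits the ECs most: *Lama2* rested on 16 and 14 UMIs there, and *Col4a5* on 31 and 37.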

Other observations

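ECs with a *Prox1* UMI (21 and 19 cells) held *Itgb4* at 120 and 388 CPM, against 56.0 and 98.1 in the other ECs, and *Hspg2* at 209 and 228 CPM, against 159 and 147. *Lama4* was at 42.6 and 68.4 CPM in them and at 37.4 and 23.5 in the other ECs, and *Col4a1* was at 619 and 357 against 475 and 251. The direction was the same in both libraries for these 4 genes, which were chosen after their values were seen, and the differences were not tested. In non-cycling Myh11-low cells, *Col4a1* was at 624 and 340 CPM with at least 2 *Lum* UMIs and at 386 and 259 without, and *Lama2* was at 41.3 and 41.4 against 32.5 and 37.1.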
